A study of Mus musculus with 3 samples.

Results

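The promoters described here are 140 autosomal protein-coding promoters that are poor in CpG dinucleotides and yet carried a DNase I peak in all 3 libraries of embryonic mouse liver. A promoter was the 1001 bp window from 500 bp before to 500 bp after the gene-level start in GENCODE M21. It was called CpG-poor where the ratio of observed to expected CpG dinucleotides in the GRCm38 sequence was below 0.3, which held for 6736 of 20807 promoters. It was called open where the shorter of the 2 deposited peak lists had a peak in the window in each of the 3 replicates, and 140 of the 6736, or 2.08%, met that rule. Over all 20807 promoters the share was 47.2%, and over the 14071 with a higher CpG ratio it was 68.8%. The peaks chose the members, so these shares and the peak signals below are a description without a test. A further 6252 CpG-poor promoters, 92.8%, had no such peak in any replicate and are called closed, and 344 had one in 1 or 2 replicates and are called partly open.

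All 3 libraries belong to 1 group: liver of mouse embryos at 13.5 days, of a strain labelled C57BL/6N,129 with an HS2 HS3 deletion and a "HOM globin mutation". HS2 and HS3 are names of hypersensitive sites in the enhancer cluster upstream of the β-globin genes. Every library carries the mutation, none of unaltered liver is analysed here, and the sex was not collected. The labels number 3 biological replicates with separate biosamples but 1 donor entry, and do not say whether a biosample is 1 embryo or a pool. The spread between replicates may therefore be partly technical.

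Most mammalian genes that every cell uses start in CpG islands, stretches in which CpG dinucleotides have been kept, and such promoters are accessible in most tissues. Promoters outside islands belong more often to genes used in few cell types, and they depend more on factors that bind in those cells. DNase I cuts accessible DNA, so a peak of cuts marks an open element, and a footprint is a short stretch inside it that is cut less, as happens where a protein covers the DNA. The embryonic liver is the main site of red cell formation at this stage, with hepatoblasts, macrophages and endothelium beside the red cell precursors. GATA1, KLF1, TAL1 and NF-E2 are the main DNA-binding factors of that lineage. In bulk tissue a weak peak may come from few cells or from little access per cell, and these cannot be told apart.

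The following stretches, read from the GRCm38 reference on the gene's own strand, show the bases that lay in a footprint in all 3 replicates at 4 members; capitals mark these bases. Epor codes for the erythropoietin receptor (chr9:21963586-21963696, minus strand, 190 to 80 bases before the start), Nfe2 for the blood-specific subunit of NF-E2 (chr15:103258503-103258568, minus strand), Cd59a for an inhibitor of complement lysis (chr2:104095716-104095826, plus strand) and Hbb-bt for adult β-globin (chr7:103813946-103814026, minus strand, from 30 bases before to 50 bases after the start). They are shown because the capitals hold whole motif words: the GC box GGGCGG, read on either strand, at Epor and Nfe2, the KLF word CCACNCCC at Cd59a and the TATA word TATATA at Hbb-bt.
Epor: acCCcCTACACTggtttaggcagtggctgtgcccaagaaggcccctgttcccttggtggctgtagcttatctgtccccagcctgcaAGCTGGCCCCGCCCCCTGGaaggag
Nfe2: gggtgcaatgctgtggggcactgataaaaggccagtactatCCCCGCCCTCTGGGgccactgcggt
Cd59a: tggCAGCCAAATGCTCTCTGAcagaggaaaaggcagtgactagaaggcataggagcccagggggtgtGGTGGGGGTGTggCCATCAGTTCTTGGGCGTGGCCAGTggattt
Hbb-bt: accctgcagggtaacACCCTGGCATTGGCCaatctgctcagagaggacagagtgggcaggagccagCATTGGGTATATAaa
The next 6 run from 60 bases before to 10 bases after the start of red cell genes, and capitals mark a GATA word (AGATAA or AGATAG or TGATAA or TGATAG, on either strand). They are chr1:173333740-173333810, chr2:121037062-121037132, chr4:119190001-119190071 and chr6:41704329-41704399 on the minus strand, and chr2:103957926-103957996 and chr4:134864476-134864546 on the plus strand.
Ackr1: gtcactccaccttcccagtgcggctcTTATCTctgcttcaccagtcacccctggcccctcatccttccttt
Epb42: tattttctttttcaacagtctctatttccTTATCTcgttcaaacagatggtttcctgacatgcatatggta
Ermap: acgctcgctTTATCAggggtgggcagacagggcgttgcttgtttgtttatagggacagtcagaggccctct
Kel: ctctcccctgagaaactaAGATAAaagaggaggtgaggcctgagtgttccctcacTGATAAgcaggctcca
Lmo2: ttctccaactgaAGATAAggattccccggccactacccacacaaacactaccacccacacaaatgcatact
Rhd: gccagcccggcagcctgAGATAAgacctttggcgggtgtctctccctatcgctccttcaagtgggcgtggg
For contrast, 3 closed CpG-poor promoters are given over the same span, with the TATA word (TATAAA or TATATA) in capitals. Acta1 codes for skeletal muscle actin (chr8:123894741-123894811), Cyp7a1 for the rate-limiting enzyme of bile acid synthesis (chr4:6275623-6275693) and Gzma for a protease of cytotoxic lymphocytes (chr13:113100971-113101041), all on the minus strand. These 3 were picked as examples after the values were seen.
Acta1: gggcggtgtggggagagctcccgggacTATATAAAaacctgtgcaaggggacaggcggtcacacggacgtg
Cyp7a1: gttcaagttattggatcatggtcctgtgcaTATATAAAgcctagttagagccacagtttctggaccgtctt
Gzma: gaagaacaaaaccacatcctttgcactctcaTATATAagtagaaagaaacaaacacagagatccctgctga

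The libraries differed in how much was called. The shorter lists held 28209, 57314 and 41319 peaks in replicates 1, 2 and 3, and 154 (2.29%), 452 (6.71%) and 252 (3.74%) of the CpG-poor promoters had a peak in them. Of the 344 partly open promoters, 218 had a peak in replicate 2 alone and 91 in replicates 2 and 3. Their median signal where present was low, 1.18 in replicate 1, 0.699 in replicate 2 and 0.810 in replicate 3. Red cell markers were open: the CpG-poor Hbb-bs, Klf1 and Epor are members, and Tal1 was open at a promoter of higher CpG ratio. The marker Slc4a1 had a peak at its gene-level start in replicates 2 and 3 but not 1. Of the hepatoblast markers, Alb and Afp had no shorter-list peak at the gene-level start in any replicate, Hnf4a and Apoa1 had one in replicate 2 alone, with 0.435 and 1.16, and Ttr had one in replicates 1 and 2, with 0.731 and 0.954. The macrophage markers Adgre1, Csf1r and C1qa and the endothelial markers Cdh5, Stab2 and Emcn had none.

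The share of open promoters rose steeply with CpG content, and the members lie on its lowest steps. Of 1679 promoters with a ratio below 0.1, 4 were open (0.238%), of 3020 between 0.1 and 0.2 there were 44 (1.46%), and of 2037 between 0.2 and 0.3 there were 92 (4.52%). The share was 17.2% in the next bin, 59.4% between 0.5 and 0.6 and 90.3% between 0.9 and 1. Among open promoters, the median of the mean signal was 2.24, 2.30 and 2.37 in the 3 bins of members and 1.89 between 0.3 and 0.4, before it climbed to 7.05 between 0.8 and 0.9. At the edge of the rule, the members with the highest ratios were Pycard, the inflammasome adaptor, with a mean signal of 1.01 ± 0.0987, Dhx32 with 2.37 ± 0.311 and Cpq with 1.33 ± 0.0536. Just outside it 3300002I08Rik had 1.66 ± 0.675, Gimap9 1.04 ± 0.175 and Atpaf2 1.11 ± 0.206 (SD, n = 3).

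**Figure D1:**
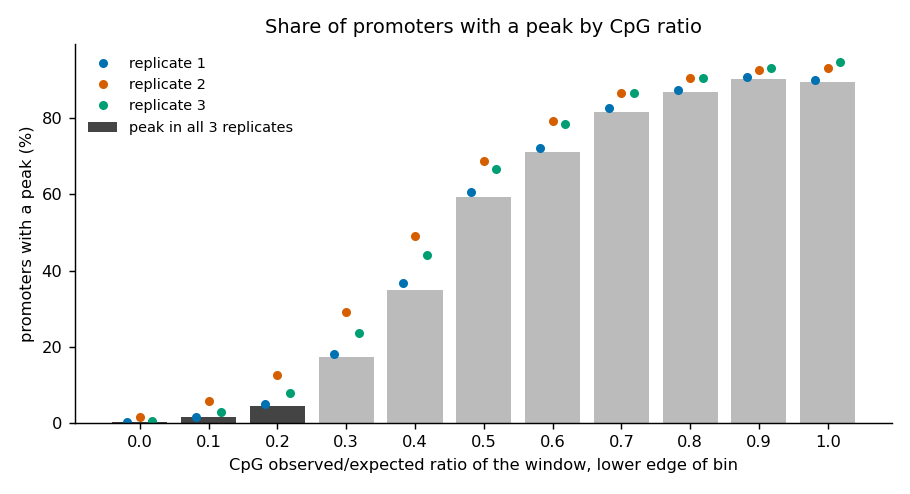
Share of autosomal protein-coding promoters with a shorter-list peak (y axis, %) by the CpG observed to expected ratio of the window (x axis, bins of 0.1, the last open-ended). Bars are promoters with a peak in all 3 replicates, dark below 0.3, and points are single replicates; the bars climb from 0.238% to 90.3%.

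Peak signal, the deposited value of the strongest shorter-list peak in the window, was lower at the members than at other open promoters. Its median over the 140 was 2.18, 2.65 and 2.11 in replicates 1, 2 and 3, or 2.32 ± 0.294 (SD, n = 3). The 9674 open promoters of higher CpG ratio had medians of 5.28, 6.84 and 5.24, or 5.79 ± 0.916. Single values ran from 0.452 to 17.5. By their mean over replicates 80 members reached 2, 8 reached 5 and 2 reached 10, while 15 stayed below 1, and 5 lay above the median of the other open promoters, which was 5.82. Replicate 2 held the highest value at 100 members (71.4%) and at 74.9% of the open promoters of higher CpG ratio. The highest replicate was 1.40 times the lowest in the median member, the same as at the other open promoters.

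The strongest promoters were a mixed group. Nfe2 stood first, with 9.03, 17.5 and 8.29 in replicates 1, 2 and 3 (11.6 ± 5.10). Ell2, an elongation factor of RNA polymerase II, had 8.28, 16.5 and 8.11 (10.96 ± 4.79). Both were about as high in replicates 1 and 3 and highest in replicate 2. Madd, a death domain protein and exchange factor for RAB GTPases, had 9.14, 13.4 and 7.20. Cd59a had 6.93, 9.89 and 5.84 (7.55 ± 2.10). Rab26, a vesicle GTPase, followed with 6.31 ± 1.48, Pgs1, an enzyme of cardiolipin synthesis, with 5.70 ± 0.272, and Baz2a, a chromatin remodelling subunit at ribosomal RNA genes, with 5.24 ± 1.23. Cbln3, whose peak reaches the start of another gene, had 5.43 ± 0.949. Atp5j2, a subunit of mitochondrial ATP synthase, had 4.80 ± 0.426, 6030468B19Rik 4.79 ± 2.16, and Bak1, a pore-forming protein of apoptosis, 4.70 ± 0.388. At the other end were 2 zinc finger genes, Zfp947 with 0.632 ± 0.123 and Zfp970 with 0.483 ± 0.0518, and the predicted gene Gm13212 with 0.608 ± 0.0439.

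**Figure D2:**
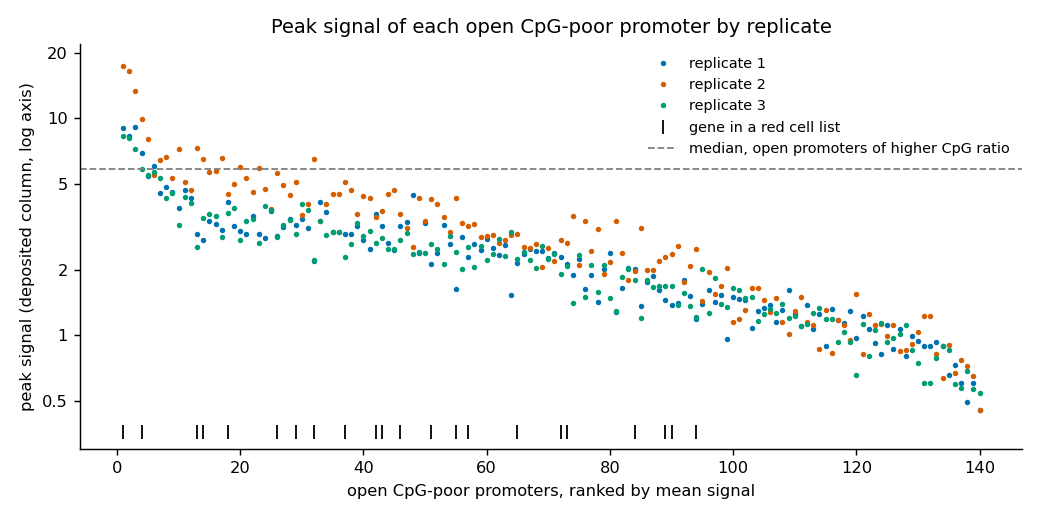
Peak signal of the 140 open CpG-poor promoters (log y axis, deposited value) in rank order of the mean, with 1 point per replicate. Ticks at the bottom mark the 22 genes of the red cell lists, and the dashed line is the median of open promoters of higher CpG ratio, 5.82, which 5 members exceed.

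Agreement between replicates varied by member. The ratio of the highest to the lowest replicate was at most 1.5 at 84 members and above 2 at 21. It was widest at Cd47, the signal on cells that restrains phagocytes, with 2.21, 6.47 and 2.22, at Trim10, a RING finger protein known from erythroid maturation, with 2.94, 7.28 and 2.55, and at Trim12c, with 1.29, 3.38 and 1.29. In all 3 the value of replicate 2 stood apart. It was narrowest at G430095P16Rik, with 3.74, 3.82 and 3.797, at the kinase gene Sbk2, with 1.26, 1.30 and 1.23, and at Pon3, a lactonase carried by HDL, with 2.37, 2.54 and 2.41.

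The peaks lay farther from the start than at other open promoters. The midpoint of the strongest peak was a median of 105, 103 and 103 bp from the gene-level start in replicates 1, 2 and 3, against 71.5, 63.5 and 65.5 bp at open promoters of higher CpG ratio. The strongest peak covered the start in all 3 replicates at 62 members and in none at 48. Its midpoint was within 100 bp of the start in all 3 at 59 members and over 250 bp away in all 3 at 32, and the median of the mean signal was 2.66 for the first and 2.37 for the second. It fell upstream of the gene in all 3 replicates at 64 members, in an exon at 38 and in an intron at 10. An annotated start of the same gene lay within 100 bp of the midpoint in all 3 at 85 members.

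The window and the peak did not always have the same CpG content. Computed over 250 bases on each side of the peak midpoint, the CpG ratio was still below 0.3 in all 3 replicates at 94 members (67.1%) and at least 0.3 in all 3 at 36 (25.7%). Of the 32 members with the midpoint over 250 bp away, it was below 0.3 at 19 and at least 0.3 at 13, and the other 23 of the 36 were not that far. Of the 10 members with the highest mean signals, 7 had a ratio of at least 0.3 at the peak and 7 had their midpoint over 250 bp from the start. At Ell2 the midpoint was in an exon 623.5, 593.5 and 613.5 bp downstream of the start, with ratios of 0.84, 0.81 and 0.82 there against 0.244 in the window. Nfe2 differed: its midpoint was at -127.5, -147.5 and -137.5 bp, and its ratios of 0.30, 0.29 and 0.29 were close to the 0.268 of its window. Of the 22 members in the red cell lists, 18 had a ratio below 0.3 at the peak in all 3 replicates.

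Other starts also bear on which gene a peak is given to. The peaks of 6 members (4.29%) reached the start of another protein-coding gene: Cbln3 that of Khnyn, Orc4 that of Mbd5, and the neighbours Igtp and Irgm2, and Tmem176a and Tmem176b, each other's. The members of those last pairs share 1 peak and are not independent. Another start of the same gene, over 1 kb away, was open in all 3 replicates at 26 members, and at 19 it had the higher signal. Sp2, a factor of the Sp family, had 11.1, 19.0 and 11.1 there (13.7 ± 4.57) against a mean of 2.02 at its CpG-poor start. Ifrd1, a transcriptional coregulator, had 12.8 ± 4.68 against 1.06, and Cd47 had 7.96 ± 0.639 at a start 54.8 kb downstream against 3.63. These 3 were chosen as examples after their values were seen.

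Of the 29 members that were in any of the 20 gene lists, 22 were in a red cell list. The 5 red cell lists held 54 genes with CpG-poor promoters, and 22 of them (40.7%) were open, against 2.08% of all CpG-poor promoters. A further 6 were partly open and 26 closed. Their median mean signal was 3.21, against 2.09 for the other 118 members. The lists were drawn up with earlier results of these libraries known, so the count is a description and carries no test.

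**Figure D3:**
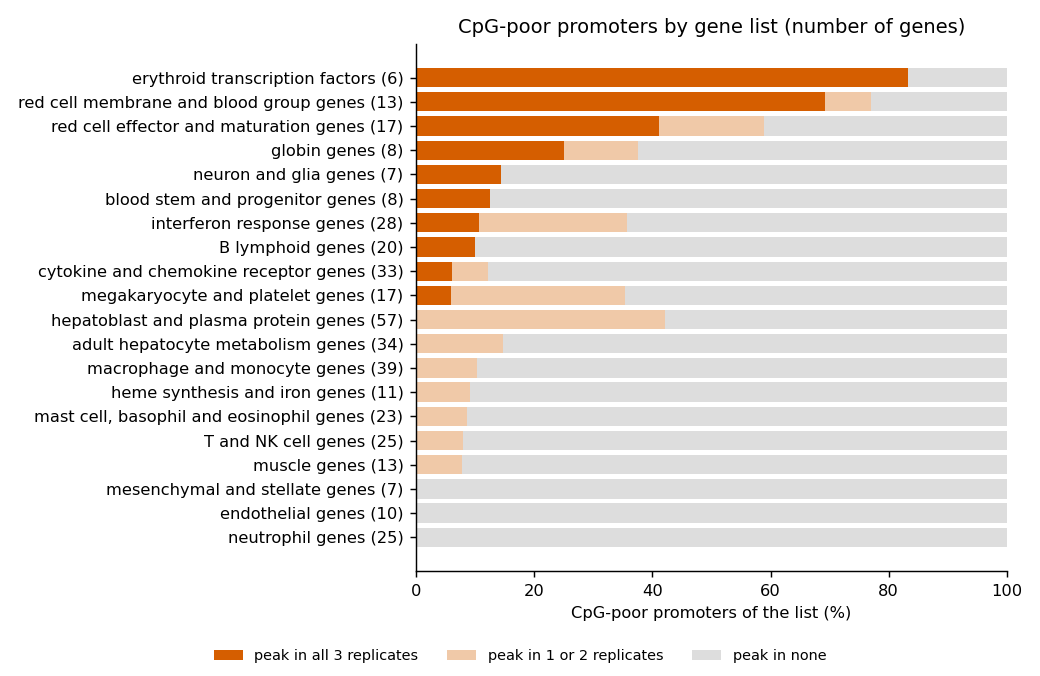
CpG-poor promoters of 20 gene lists (y axis, number of genes in brackets) by state (x axis, % of the list): peak in all 3 replicates, in 1 or 2, or in none. The list of erythroid transcription factors (5 of 6, among them the RING finger gene Trim10) and red cell membrane genes (9 of 13) have the longest open bars. The hepatoblast list has 0 of 57 open but 24 partly open, against 344 partly open of all 6736 CpG-poor promoters.

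The list of erythroid transcription factors, which also holds cofactors and the RING finger gene Trim10, was open at 5 of its 6 CpG-poor promoters. Besides Nfe2 and Trim10 they were Klf1, the factor that activates adult β-globin, with 2.29, 3.20 and 2.55, Lmo2, the bridge in the TAL1 complex, with 2.15, 2.93 and 2.25, and Cbfa2t3, a corepressor that joins that complex, with 2.13, 2.65 and 2.09. These last 3 differed little from each other, and each was highest in replicate 2. The strongest Klf1 peak of replicate 3 was a different one, with its midpoint at -617.5 bp, whereas those of replicates 1 and 2 were at 45.5 and 12.5 bp. The sixth, Stat5a, a mediator of erythropoietin signalling, was closed at its gene-level start. A start 0.994 kb downstream was open, with 2.57, 3.73 and 3.55.

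Membrane and blood group genes were open at 9 of 13. Cd59a and Cd47 are given above. Ermap, which carries the Scianna antigens in humans, had 2.87, 5.57 and 2.84, Epb42, the band 3 anchor protein 4.2, had 3.21, 5.07 and 2.92, and Kel, the Kell protease, had 2.94, 5.08 and 2.29. Rhd, the Rh protein, had 3.18, 3.61 and 2.75, and its partner Rhag had 1.37, 2.36 and 1.68. Ackr1, the Duffy chemokine receptor, had 2.29, 2.75 and 1.92. All 6 had their highest value in replicate 2. Rhag and Kel also had the lowest CpG ratios of all members, 0.0363 and 0.0374, followed by Cyp1a1, a xenobiotic oxidase, with 0.0636. The other 4 of the list were not open at the gene-level start, and all 4 were open at another. Slc4a1, the anion exchanger band 3, had 1.26 and 1.28 in replicates 2 and 3 at its gene-level start, and 4.55, 8.69 and 3.81 (5.68 ± 2.63) at a start 2.50 kb downstream. The urea transporter Slc14a1 had 3.08 ± 0.833 at another start, the transporter Abcg2 4.02 ± 0.431 and the tropomyosin Tpm3 7.65 ± 3.07.

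Effector and maturation genes were open at 7 of 17. Epor had 4.11, 4.49 and 3.65 (4.08 ± 0.424), with replicates closer together than at most red cell members. Tspo2, an erythroid cholesterol-binding protein, had 3.26 ± 0.515. Its strongest peak had its midpoint at 592, 62 and 612 bp in replicates 1, 2 and 3, so the values may not be of the same peak. Acp5, an acid phosphatase best known from osteoclasts, had 3.24 ± 0.465, and Rhd, which is also in this list, is given above. Pklr, the pyruvate kinase of red cells and liver, had 1.93 ± 0.119, Isg20, an exonuclease induced by interferon, had 1.82 ± 0.438, and the protease cathepsin E, Ctse, had 1.63 ± 0.746. The Pklr peak had its midpoint 428.5 to 483 bp downstream of the gene-level start and within 2 bp of another annotated start of the gene. Closed or partly open at the gene-level start were, among others, Car1, a carbonic anhydrase of red cells, Hemgn, a nuclear protein of blood cells, and Gdf15, a growth factor; Gpx4 and Hk1 were closed there but open at other starts, with 16.4 ± 5.62 and 11.4 ± 1.48.

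The globin and heme lists contributed less. Of 8 CpG-poor globin promoters, Hbb-bs was open with 2.75, 6.48 and 3.46 and Hbb-bt with 2.14, 4.23 and 2.63. The embryonic genes Hba-x, Hbb-y and Hbb-bh1 and the minor gene Hbb-bh2 were closed. Hba-a1 had a peak of 1.55 in replicate 2 alone and Hba-a2 had none, but only 12.0% and 6.80% of the 32-base words in their windows occur once in the genome, so reads from these near-identical genes could be lost there. The windows of Hbb-bs and Hbb-bt have 79.2% and 69.8% unique words, and how reads were split between them is not given in the sources used here. None of the 11 CpG-poor heme and iron genes was open at the gene-level start, and 1 was partly open. Open at other starts were 5 of them, among them Fech, the last enzyme of heme synthesis, with 10.7 ± 1.04 at 1.20 kb and Fth1, ferritin heavy chain, with 10.8 ± 1.72. The liver-made Hamp and Hamp2, which code for hepcidin, and the plasma proteins Hp and Hpx were open at no annotated start. With any annotated start, 36 of the 54 red cell genes (66.7%) were open, against 674 of the 6736 CpG-poor genes (10%).

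**Figure D4:**
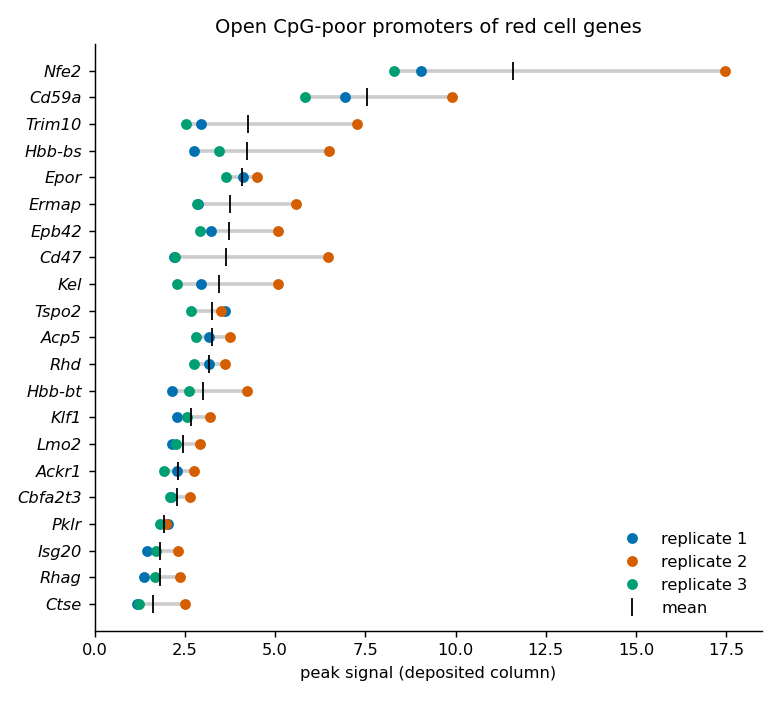
Peak signal (x axis, deposited value) at the open CpG-poor promoters of red cell list genes, of which 1 of the 22 is not shown. Points are the 3 replicates, ticks are means and grey bars span the replicates; Nfe2 runs from 8.29 to 17.5 and Ctse, the lowest by mean, has 1.63 ± 0.746.

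The other lists had 0 to 3 members each. Over all CpG-poor promoters 2.08% were open, so 0 open in lists this short says little. Those of the other lists that had members had 5.88% to 14.3% open, above that share but on 1 to 3 genes each. Lmo2, Ackr1 and Isg20, counted among these, are also in the red cell lists, so these shares are not independent of the red cell count. No CpG-poor promoter was open among 57 hepatoblast, 34 adult hepatocyte, 39 macrophage, 25 neutrophil, 23 mast cell, 25 T and NK cell, 10 endothelial, 7 mesenchymal and 13 muscle genes. For hepatoblasts 24 of the 57 were partly open, and 21 of these had a peak in replicate 2 alone. Over all 6736 CpG-poor promoters the same counts were 344 and 218. The partly open share was thus far higher in the hepatoblast list, though mostly through replicate 2, which had the most peaks. F10 and Vtn had a peak in replicates 2 and 3, and Ttr in replicates 1 and 2. The peaks of single genes were low: F10, a clotting factor, had 1.12 and 0.814 in replicates 2 and 3. In replicate 2 alone, Ambp, the precursor of α1-microglobulin and bikunin, had 0.778, Amt, a subunit of the glycine cleavage system, 0.820, and Agt, the precursor of angiotensin, 0.485. The plasma protein genes A1bg and Ahsg, which codes for fetuin-A, were closed. A list of blood stem cell genes had 1 of 8 open, Lmo2, and the megakaryocyte list 1 of 17, Fermt3, an integrin activator of blood cells, with 2.48, 2.83 and 2.57. The B lymphoid list had 2 of 20, the tetraspanin Cd37 with 1.42 ± 0.0974 and the B cell adaptor Bank1 with 0.649 ± 0.106. The cytokine receptor list had 2 of 33, Ackr1 and Tnfrsf14, which had 2.66 ± 0.595. The interferon list had 3 of 28, Igtp, a GTPase of cell-autonomous defence, with 3.50 ± 0.861, Ifi35 with 3.22 ± 1.10, and Isg20. The neuron and glia list had 1 of 7, Gfap, the filament protein of astrocytes, with 2.27, 2.53 and 2.25.

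Large families of CpG-poor genes were mostly closed, as were 92.8% of all CpG-poor promoters, of which 2.08% were open. Of 1112 olfactory receptor promoters 1 was open, Olfr464, with 0.895, 0.636 and 0.897, and of 327 vomeronasal receptors and 74 keratins none was. The cytochrome P450 family had 2 of 80 (2.5%), Cyp4f13 and Cyp1a1, close to the share over all. The solute carriers had 1 of 100, Slc51a, a bile acid transporter, with 1.24 ± 0.230. Zinc finger genes had 4 of 47 (8.51%), above the share over all, and predicted or RIKEN genes 8 of 1035 (0.773%), below it.

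Most members, 111 of 140, were in no list, and they are grouped here by known function after their values were seen. Genes of innate defence and antigen handling included Trim21, a cytosolic antibody receptor (2.94, 5.28 and 3.35), Trex1, a DNA exonuclease (3.12, 4.03 and 3.76), Irgm2, Herc6, Uba7, Parp11, the class I gene H2-T24 and Tapbpl. The strongest Trex1 peak had its midpoint at -76, 424 and -66 bp in replicates 1, 2 and 3, so its values may not be of the same peak. Genes of blood cell signalling included Rac2, a GTPase of blood cells (1.25, 0.862 and 1.33), Ptpn7, a phosphatase of blood cells (2.41, 2.19 and 2.37), Tspan32 and Ubash3a. Lysosomal enzymes were represented by Tpp1 (2.92, 5.91 and 2.65), Dpp7 (3.30, 3.35 and 2.40) and Hyal1 (3.34, 3.14 and 2.96). Metabolic genes included Gapdh (1.88, 2.00 and 1.67), the glycolytic Aldoc, the cytochrome oxidase subunit Cox7a1, the bile acid enzyme Hsd3b7 (3.43, 4.44 and 3.39) and Soat2, which makes cholesterol esters. Some members are known from quite other tissues: Lhx3, a pituitary and motor neuron factor (3.18, 5.004 and 3.86), Aanat, the enzyme that limits melatonin synthesis (2.65, 2.99 and 2.88), Opn1sw, the short-wave cone opsin (1.63, 2.21 and 1.69), and Otos of the inner ear (0.920, 1.12 and 1.05). The values of Aanat differed little between replicates, and those of Lhx3 were highest in replicate 2. At each of these genes from other tissues, the CpG ratio around the peak midpoint was at least 0.3 in all 3 replicates. It was 0.38 to 0.39 at Lhx3, 0.36 at Aanat, 0.31 at Opn1sw and 0.34 to 0.37 at Otos. The midpoint lay 528 to 532 bp downstream of the start at Aanat and 332 bp upstream at Opn1sw, with no annotated start of the gene nearer.

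Footprints were present at nearly all members. A footprint overlapped the window in all 3 replicates at 132 of 140 (94.3%), with a median of 3, 4 and 4 per window in replicates 1, 2 and 3, against 7, 7 and 7 at open promoters of higher CpG ratio. At 101 members (72.1%) at least 1 base was in a footprint in all 3. Of the 6252 closed promoters, 7, 83 and 59 had a footprint in replicates 1, 2 and 3, and 4 in all 3. Bak1 had the most separate stretches in a footprint in all 3 replicates, 5, and 11 members had 4, among them Ell2 and Cd59a. No q-value ranks them, since every footprint is listed at the same 0.01.

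Of the 17 motifs searched, the GC box was the most frequent in footprints in each replicate. Counted here were footprints that overlapped a shorter-list peak of the same replicate, each once. The GC box lay in 5.57%, 6.13% and 5.69% of those at the members (20 of 359, 28 of 457 and 28 of 492), against 0.336%, 0.850% and 0.227% of windows of the same width 100 bp away in the same peaks. The KLF word lay in 2.51%, 1.75% and 1.02%, against 0.336%, 0.283% and 0. GATA words lay in 0.279%, 0.875% and 0.407% of the footprints (1, 4 and 2 of them), against 1.01%, 1.70% and 1.14% of the control windows. In footprints of open promoters with a higher CpG ratio, GC boxes were more frequent, at 12.5%, 15.0% and 12.5%, and GATA words less, at 0.164%, 0.266% and 0.234%. Counted over bases in a footprint in all 3 replicates, a whole GC box was found at 15 members, a KLF word at 3, the NF-E2/AP-1 word TGACTCA at 2, among them Ifrd1, and a GATA word at none. Footprints can be shorter than a bound site, and their widths set how many words can lie wholly inside.

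In base composition the members stood between closed promoters and the rest. Their median CpG ratio was 0.239 and GC content 52.3%, against 0.149 and 44.7% at closed CpG-poor promoters and 0.763 and 59.7% at open promoters of higher CpG ratio. The red cell members had a median CpG ratio of 0.169 and the others 0.245. Soft-masked repeats made up a median of 10.8% of the members' windows and 14.4% of the closed ones. Closed promoters of like GC content are the 1122 with at least 80% unique words and a GC content within the members' interquartile range, 49.2% to 54.7%. The GC box, searched on both strands as all words were, occurred in 47.1% of the members, 13.6% of closed, 25.4% of closed promoters of like GC content, 90.1% of open higher-CpG and 61.4% of all promoters. It was in 22.7% of the red cell members and 51.7% of the others. The ETS word CCGGAAG was in 14 of the 140 members (10%), 3.33% of closed and 5.61% of closed promoters of like GC content. It was in 33.9% of open higher-CpG and 19.5% of all promoters, and in none of the 22 red cell members, which are few for a word this rare. The GC box and CCGGAAG each hold a CpG, and the closed promoters of like GC content were not matched for CpG ratio. Their median ratio was 0.185, below that of the members. How far the CpG ratio accounts for these shares was not tested. The KLF word was in 45.7% of the members, 24.0% of closed, 40.5% of closed promoters of like GC content and 39.5% of all. The word CAAAGTCCA of the hepatocyte factor HNF4 was in 2.14% of members and 2.98% of closed promoters. Different words may overlap each other, and a word is a description of the letters, not a bound site.

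GATA words were present in most CpG-poor windows, open or closed. At least 1 lay in the window of 75% of members, 84.0% of closed CpG-poor promoters, 50.1% of open higher-CpG promoters and 62.7% of all. Among the closed promoters of like GC content the share was 74.6%. All 22 red cell members had one, and 83 of the other 118 (70.3%). Within the members' windows GATA words numbered 2.41 per kb under peaks common to all 3 replicates and 1.42 per kb in the remainder, while closed promoters held 2.22 per kb. The 2.41 rests on 58 words. Such a word was present at 14 of the 22 red cell members and 28 of the other 118, and the density was not computed for these groups apart.

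Their position differed by group. A GATA word started between 60 and 20 bases before the gene-level start at 9 of the 22 red cell members (40.9%) and at 10 of the other 118 (8.47%). It did at 8.03% of closed CpG-poor promoters, 5.44% of the closed ones of like GC content, 1.84% of open higher-CpG promoters and 4.13% of all. The span was chosen after the positions were seen, no test was made, and 9 genes are few. They were Ackr1 (first base at -34), Epb42 (-31), Ermap (-51), Hbb-bs (-42), Kel (-42), Klf1 (-26), Lmo2 (-48), Pklr (-35) and Rhd (-43). The word was under a peak in all 3 replicates at the 6 of these whose sequences are printed above, and none of the words lay in a footprint of all 3 replicates. Over whole windows 14 of the 22 red cell members and 28 of the other 118 had a GATA word under a peak in all 3.

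**Figure D5:**
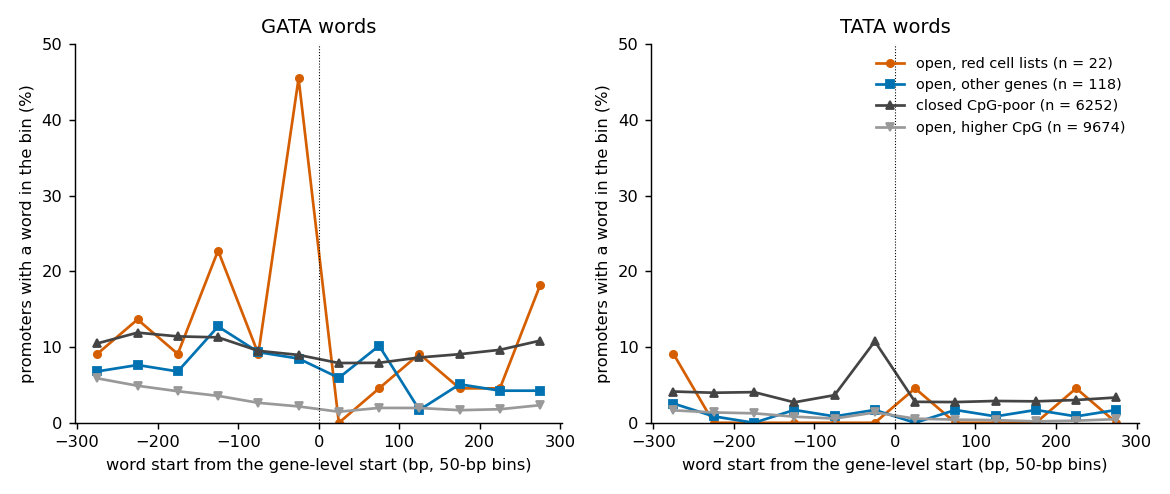
Share of promoters with a GATA word (left) or a TATA word (right) that starts in each 50 bp bin (y axis, %) by distance from the gene-level start (x axis, bp). In the bin just before the start GATA words reach 45.5% of the 22 red cell members and 8.96% of closed promoters, and TATA words reach 0 and 10.7%.

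TATA words were arranged differently. No member had TATAAA or TATATA starting 40 to 20 bases before the gene-level start, against 500 of 6252 closed CpG-poor promoters (8.0%), 5.53% of those of like GC content, 3.20% of partly open, 0.941% of open higher-CpG and 3.47% of all promoters. The answer depended on which start was used. Measured from any annotated start of the gene in the window, 4 members had one, Ackr1, Adprhl1, Ankrd2 and Pklr (2.86%), against 9.33% of closed, 1.55% of open higher-CpG and 4.34% of all promoters. Members had a median of 2 annotated starts in the window and closed promoters 1. Hbb-bt had TATA words 43 and 45 bases after its gene-level start, the first of them wholly in a footprint in all 3 replicates, as printed above. The closed Acta1, Cyp7a1 and Gzma show the word where a TATA box is usually found.

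Weaker measures of access were also mostly absent at closed promoters. Of the 6252, 5977 had no peak in the longer list in any replicate and 9 had one in all 3. By that list 3.70% of CpG-poor promoters were open in all 3 replicates. No base with a deposited FDR of the cut density below 0.05 lay in the window in any replicate at 5865 (93.8%). Members had a median of 399, 631 and 513 such bases per window. Repeats and copies limit what can be seen: 1602 of the closed windows and 12 of the members' had fewer than 80% unique words. Among the 5091 CpG-poor promoters with at least 80%, 128 were open (2.51%).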

How the data were processed

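DNase-seq files of 3 libraries of 1 group were used, and no groups were compared. Filtered alignments to mm10, kept apart by library, were their source, per the notes deposited with them. Aligner and callers were not given in the sources used here. Column 7 of the peak lists the authors deposited is taken as the peak signal, whose meaning these notes do not state. Values below 2 were whole multiples of a step of 0.0126, 0.00837 and 0.00753 in replicates 1, 2 and 3 (100% within 0.02 steps), and the read depth is unknown. The deposited footprints carry 1 q-value, 0.01, and the deposited cut density file lists a false discovery rate (FDR) for stretches where it is below 0.05.

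Starts were those of GENCODE M21, and sequence was read from GRCm38. A peak counted where it shared at least 1 bp with the window; no signal was rescaled. The 20 gene lists, the 17 motifs and the members were chosen with earlier results of these data known. Named were the members with the highest signal whose peaks reach no other gene's start and whose windows are at least 80% unique, those with the lowest signal and extreme CpG ratio, replicate spread and footprint number, those at the CpG limit, all red cell list members but 1, which is not reported here, up to 3 of each other list, and the first 5 not open of each red cell list and the hepatoblast list in alphabetical order; further names were chosen after their values were seen. Values are means ± SD over the replicates, and no test was run. Alternatives changed the peak list, window, CpG limit, unique sequence, footprint extent, start and replicates. Scripts used Python 3.11.15, numpy 2.4.6, pandas 2.3.3, scipy 1.17.1 and matplotlib 3.10.9 and were tested on simulated data.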

Additional observations from a re-analysis of the deposited data

How the results depend on the processing

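Of 85 recomputed values, 56 kept the reported value within its limits and 29 moved. The limits differed by kind of value, so the 56 mixes unlike criteria. Percentages of promoters used the exact 95% binomial interval, which takes promoters as independent. Counts used a factor of 1.5, or equality where the reported count was 0. Signals and the share of footprints with GATA words used the SD over replicates. The number open, 140, was 249 with the longer list, 73 with the upper 50% of the shorter list by signal, 245 with 1000 bp on each side, 77 and 241 with CpG limits of 0.25 and 0.35, and 140 to 231 with each replicate left out, the 231 being without replicate 1. The percent open, 2.08, was 3.70, 1.08, 3.64, 1.32 and 3.23 in the same order, 1.69 with 250 bp on each side, 2.72 with the CpG ratio over 250 bp on each side, 2.51 with unique windows and 2.08 to 3.43 with each replicate left out. The median signal, 2.32, was 1.32 with the longer list, 3.37 with the upper 50% and 1.54 to 2.40 with each replicate left out. Members with a footprint in all 3 replicates, 94.3%, were 78.7% with the longer list and 88.6% within the peak itself. GATA words in footprints, 0.520% over the replicates, were 2.23% with 5 bases added on each side. Control windows were not widened in the same way, so the 2.23% cannot be set against the control shares given above. TATA words from any start gave 2.86% of members and 9.33% of closed promoters, and closed promoters of like GC content gave 5.53% for TATA and 74.6% for GATA words, settings chosen after seeing the data. Open red cell genes, 22, were 36 with any start. Open hepatoblast genes, 0, were 3 with the longer list and 0 to 2 with each replicate left out, the 2 being without replicate 1 and 1 without replicate 3. The cause of these shifts was not tested. No paired analysis was possible because there is 1 group. The unknown depth limits what the absence of a peak shows.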
